A study of Mus musculus with 617 samples.

Results

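The genes described here are 4 fibroblast growth factor (FGF) ligands, Fgf4, Fgf5, Fgf8 and Fgf15, the 4 FGF receptors Fgfr1, Fgfr2, Fgfr3 and Fgfr4, and Fgfbp1, which encodes a carrier protein for FGFs. They were taken by gene symbol and are 9 of the 43628 genes listed in each of 4 expression tables. RNA was measured by SMART-seq2 in 617 single mouse cells of 13 groups. The series set out to follow expression in single cells of embryonic stem (ES) cell lines, 1 male and 1 female, as development proceeds, and cells taken from embryos stand beside the cultures.

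Both ES lines came from a cross of a CAST/EiJ male with a C57BL/6J female, and each was sampled in 4 states, which share 1 table. In 2i medium with LIF, called the ground state in the labels, there were 60 female and 51 male cells. In serum with LIF there were 68 female and 52 male cells. Epiblast stem cells, labelled Epi, were derived from the ES lines with Activin A and FGF2 and gave 79 female and 63 male cells. Cells labelled motor neuron came from embryoid bodies treated with retinoic acid and the smoothened agonist SAG and gave 39 female and 35 male cells. The labels add that several interneuron types arise in the same procedure. A second table holds 41 cells of a female Epi line kept for 7 passages. The blastocyst table holds 23 inner cell mass (ICM) cells at embryonic day E3.5 and 23 cells labelled epiblast at E4.5, from the same cross and with no labelled sex. The last table holds E5.5 epiblast, 20 female and 63 male cells, and here father and mother were both C57BL/6J. Every state was thus represented by 1 culture per line, and line and sex cannot be told apart.

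FGFs are secreted proteins that bind receptor tyrosine kinases on the cell surface together with heparan sulfate, and the signal passes through RAS, RAF and MEK to the kinase ERK. In the blastocyst, FGF4 made by the cells that become epiblast acts on neighbouring cells and favours primitive endoderm, and in ES cells the same pathway prepares the exit from naive pluripotency, which one of the inhibitors in 2i medium blocks. FGF5 is a marker of the epiblast after implantation, FGF8 acts at gastrulation and later in patterning, and FGF15 is a ligand of the neural tube and the gut.

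Expression values are FPKM, fragments per kilobase of transcript corrected for the fragments of each cell, and were scaled separately in each table, so levels are set side by side across tables but tested only within the first. A gene counts as detected in a cell at 1 FPKM or more. The value that 1 fragment per kilobase is worth was estimated from the steps between low values. Its median over cells lay between 0.344 and 0.504 FPKM in the cultures of the first table, and was 0.141 at E3.5, 0.289 at E4.5 and 0.894 to 1.19 at E5.5, where a value near 1 therefore rests on about 1 fragment per kilobase. Single E3.5 cells ran from 0.0705 to 19.4 FPKM for this value. In that group 1 cell had under 50% of the median number of detected genes and was kept. Gapdh was listed at 0 in 2 female motor neuron cells, and Tuba1b in 1 male motor neuron cell and 1 cell at E3.5. Values for these groups are accordingly given with their median and highest cell, and the lowest was 0 for every member. Elsewhere ± is the SD over cells of 1 culture. Markers did not match all labels. Zfp42, a naive pluripotency gene, was detected in 78 of 79 cells of the female Epi culture, in 0 of 63 of the male Epi culture and in 3 of 41 of the passage-7 line. In cells labelled motor neuron, the endoderm gene Sox17 was detected in 19 of 39 female and 32 of 35 male cells, beside the motor neuron gene Isl1 in 17 and 22. Of 23 cells labelled E4.5 epiblast, 19 held the primitive endoderm gene Gata6.

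On the mm10 assembly (GRCm38), in GENCODE vM21, all 9 are protein-coding genes. Fgf4 (chr7:144847367-144865243) and Fgf15 (chr7:144896531-144900953) are neighbours on the plus strand with 31.288 kb between them. Fgf5 is at chr5:98254184-98277030 on the plus strand and Fgf8 at chr19:45736798-45742915 on the minus strand. Fgfr1 is at chr8:25513654-25575718 (plus), Fgfr2 at chr7:130162451-133123350 (minus), Fgfr3 at chr5:33721674-33737068 (plus), Fgfr4 at chr13:55152640-55168759 (plus) and Fgfbp1 at chr5:43978858-43981779 (minus). Exons of Fgfr3 share 998 bases with G630022F23Rik and exons of Fgf15 share 761 bases with Gm26793, both on the opposite strand. Reads from such overlaps cannot be told apart here, because no strand setting is given in the sources used here. The annotated Fgfr2 gene also shares exonic sequence with Ctbp2 on its own strand. Ctbp2 was detected in 60 of 60 female and 50 of 51 male 2i cells, where Fgfr2 was detected in 16 and 5.

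The RefSeq promoter table (GRCm38.p6) held 6 of the 9 genes, without Fgf8, Fgf15 and Fgfr1. The 250 bases before the RefSeq start are shown for 3 genes on which the single-cell results turn: Fgf4 and Fgfr2, which ran against each other in blastocyst cells, and Fgf5, which was listed at 0 in every blastocyst cell and detected in 82 of 83 cells at E5.5. No GENCODE exon covers these windows. Capitals mark GC boxes, written GGGCGG, or CCGCCC where the match is on the opposite strand. The windows are chr7:144861136-144861385 on the plus strand for Fgf4, chr5:98253934-98254183 on the plus strand for Fgf5 and chr7:130266809-130267058 on the minus strand for Fgfr2.
Fgf4: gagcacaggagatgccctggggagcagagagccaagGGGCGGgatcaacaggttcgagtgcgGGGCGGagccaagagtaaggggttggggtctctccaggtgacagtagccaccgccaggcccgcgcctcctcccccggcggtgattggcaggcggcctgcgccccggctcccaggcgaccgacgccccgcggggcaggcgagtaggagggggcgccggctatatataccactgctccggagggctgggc
Fgf5: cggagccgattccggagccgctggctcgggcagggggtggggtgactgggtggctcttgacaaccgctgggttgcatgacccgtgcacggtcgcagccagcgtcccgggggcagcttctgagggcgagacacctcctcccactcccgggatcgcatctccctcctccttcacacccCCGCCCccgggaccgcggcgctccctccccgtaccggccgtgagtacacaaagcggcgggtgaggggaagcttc
Fgfr2: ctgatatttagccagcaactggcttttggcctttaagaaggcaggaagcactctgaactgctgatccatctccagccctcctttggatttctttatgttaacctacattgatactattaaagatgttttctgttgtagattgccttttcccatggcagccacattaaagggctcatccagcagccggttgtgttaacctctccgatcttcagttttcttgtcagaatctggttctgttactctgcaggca
The Fgf4 and Fgf5 stretches are rich in G and C (71.2% and 70.8%) and hold 21 and 24 CpG dinucleotides, whereas the Fgfr2 stretch has 44% G and C and 2 CpGs. Fgf4 has 2 GC boxes in its stretch and Fgf5 has 1. Over the table's windows, from 250 bases before to 50 after the start, 35.7% of 32851 promoters hold a GC box on either strand. The TATA box (TATAAA, in 13.6% of promoters), the E-box (CACGTG, 7.15%), the octamer (ATTTGCAT, 1.74%) and a Sox motif (CATTGT, 12.6%) were also searched on both strands, and none of them matched in the stretches printed. The longer windows, to which these percentages belong, hold a TATA box of Fgf5 at base 35 after the start and an E-box of Fgfr2 at base 29.

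Fgf4, the ligand of naive pluripotent cells, had the highest mean of the 4 ligands in both ES states. A list of 18 other FGF genes summed to 15.7 FPKM in female and 11.1 in male 2i cells. In serum the list summed to 23.1 and 19.3, of which Fgf17 was 15.9 and 11.6. In 2i medium Fgf4 averaged 43.9 ± 17.5 FPKM in female cells (n = 60) and 29.99 ± 12.9 in male cells (n = 51), and no cell of either was under 6.29 FPKM. In serum the means were 32.2 ± 25.6 (n = 68) and 46.6 ± 35.1 (n = 52), with 8 female and 2 male cells under 1. The means of the 2 media thus overlapped, while the cell-to-cell spread was wider in serum in both lines. The Epi cultures separated by line: the female mean was 39.4 ± 34.3 with 77 of 79 cells detected (97.5%, exact Clopper-Pearson 95% interval 91.2 to 99.7), and the male mean was 2.52 ± 8.97 with 9 of 63 (14.3%, 6.75 to 25.4). The passage-7 female line resembled neither, with 5.53 ± 9.93 FPKM and 18 of 41 cells (43.9%, 28.5 to 60.3). Fgf4 was listed at 0 in all 35 male motor neuron cells, which allows a share of up to 8.57%, and was detected in 6 of 39 female ones (median 0, highest 396.7). The limit for a count of 0 is 3 over the number of cells, and the exact interval would reach 10.0% here. Intervals and limits of this kind cover counting error only.

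In embryos Fgf4 was a blastocyst ligand. At E3.5 it was detected in 12 of 23 cells (52.2%, 30.6 to 73.2), with a median of 3.58 and a highest value of 75.7 FPKM. At E4.5 it was detected in 19 of 23 (82.6%, 61.2 to 95.05), with a median of 4.75 and a highest value of 79.3. At both stages a few cells carried most of the RNA, since the means of 9.76 and 11.8 were well above the medians. At E5.5 the means were 0.847 FPKM in female and 1.00 in male cells, and no cell exceeded 5.92.

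Fgf5, Fgf8 and Fgf15 were nearly absent from 2i cells. Fgf5 was detected in 1 of 60 female and 0 of 51 male 2i cells, Fgf8 in 6 and 3, and Fgf15 in 1 cell of each sex. In serum a minority of cells carried them: Fgf5 in 9 of 68 female and 6 of 52 male cells, with highest values of 91.5 and 10.8 FPKM, and Fgf15 in 8 and 10, with highest values of 109.9 and 52.7. Fgf8 was detected in 5 female cells and 1 male cell in serum. None of the 3 was detected in any of 46 blastocyst cells, and each stage of 23 cells allows a share of up to 13.0% (14.8% by the exact interval).

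In Epi cultures Fgf8 differed most between lines. The male culture averaged 361 ± 395 FPKM, from 1.11 to 2156 with a median of 242.8, and every one of 63 cells was detected. The female culture averaged 12.0 ± 47.7, with a median of 0, and 20 of 79 cells were detected (25.3%, 16.2 to 36.4). The passage-7 female line lay near the male culture, with 310 ± 413 FPKM, a median of 147.5 and 34 of 41 cells. Fgf5 had the same order of cultures, with medians of 112.8 in the male, 1.54 in the female and 86.5 FPKM in the passage-7 culture. Fgf15 did not: its means were 12.2 ± 28.9 in male, 19.1 ± 30.5 in female and 12.9 ± 27.9 in passage-7 cells, and it was detected in 25 of 63, 46 of 79 and 16 of 41 cells. Within the male Epi culture, cells of the lower run of title numbers averaged 215.3 FPKM of Fgf8 and those of the higher run 502.8. What the runs stand for is not labelled, and their part in the level was not tested.

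Single Epi cells combined ligands in different ways. In the female culture 41 of 79 cells held Fgf4 and Fgf5 together, which are all of its Fgf5 cells, and 17, 24, 25 and 11 cells held 1, 2, 3 and 4 of the ligands. In the male culture no cell held fewer than 2, and its 9 Fgf4 cells all held Fgf8. Fgf4 was detected in 77 of 79 female and Fgf8 in all 63 male cells, so overlaps with them were nearly or wholly fixed in these cultures. Fgf5 and Fgf8 varied together from cell to cell in both, with Pearson r of log2(FPKM + 1) of 0.48 over 79 female and 0.51 over 63 male cells. In the passage-7 line Fgf8 ran against Fgf15 (r = -0.65, n = 41) and against Fgf4 (r = -0.52). There Fgf8 averaged 403 FPKM in the 30 cells with the primitive streak gene T and 56.5 in the 11 without it. These coefficients describe cells of 1 culture that share library preparation and differ in depth.

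At E5.5 the 3 later ligands were present together. Fgf8 averaged 174.5 ± 190 FPKM in female cells (20 of 20 detected) and 125.7 ± 126.9 in male cells (57 of 63). Fgf5 averaged 69.4 ± 39.7 and 90.97 ± 33.2 FPKM. Fgf15 averaged 20.5 ± 20.7 in female cells (19 of 20 detected) and 34.9 ± 25.3 in male cells (62 of 63). These were its highest shares of any group. The tables were scaled separately, and the female mean was close to the 19.1 FPKM of female Epi cells. With each cell rescaled to a sum of 1000000, female E5.5 cells averaged 19.8 and female Epi cells 23.3. At E5.5 every female cell and 57 of 63 male cells held at least 3 of the 4 ligands. Exons of the antisense gene Gm26793, which overlap those of Fgf15, were also listed highest at E5.5, at means of 3.54 and 3.39 FPKM.

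Fgfr1 was the common receptor of the series. In 2i it averaged 10.49 ± 6.45 FPKM in female and 9.08 ± 6.02 in male cells, and in serum 12.51 ± 10.2 and 15.2 ± 15.9. Epi cells were higher, at 22.8 ± 13.0 female, 43.1 ± 30.8 male and 38.3 ± 28.7 in the passage-7 line. Both Epi means of the first table lay above all 6 other culture means, and the order of the other states was not clear of the spread between lines. The test of Epi against serum given below did not call Fgfr1. In embryos the means stayed between 11.7 FPKM (E5.5 female) and 16.1 (E3.5). Fgfr1 was detected in at least 86.96% of cells of every group except the motor neuron cultures, where it was found in 21 of 39 female (median 2.83, highest 114.2) and 12 of 35 male cells (median 0.0852, highest 74.7).

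Fgfr2, the receptor of primitive endoderm and of epithelia, was low in 2i and variable elsewhere. It averaged 1.57 FPKM in female and 0.942 in male 2i cells and was detected in 16 of 60 (26.7%, 16.1 to 39.7) and 5 of 51 (9.80%, 3.26 to 21.4). In serum it averaged 9.58 ± 10.9 and 6.19 ± 10.1 and was detected in 43 of 68 (63.2%, 50.7 to 74.6) and 28 of 52 (53.8%, 39.5 to 67.8). The culture means and shares of the 2 media were apart as point values. The interval of the female 2i share, up to 39.7%, met that of the male serum share, from 39.5%. With 2 cultures per medium this is a description, and the test given below did not call Fgfr2. Epi cells again split by line, with 9.54 ± 12.6 FPKM in 55 of 79 female and 2.93 ± 7.60 in 18 of 63 male cells. The motor neuron means were 16.8 FPKM (median 1.01, highest 128.5) and 13.5 (median 0, highest 126.1) in 20 of 39 and 11 of 35 cells. The highest mean of the series was at E4.5, 33.7 FPKM with a median of 25.2, against 16.3 with a median of 13.3 at E3.5.

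Among the cultures, Fgfr3 and Fgfr4 were highest in the motor neuron ones. Fgfr3, a receptor best known from cartilage and the nervous system, stayed at a mean under 1 FPKM in both media and in all 3 Epi cultures. It averaged 8.44 FPKM in the female and 13.1 in the male motor neuron culture, with highest cells of 184.7 and 92.6, and was detected in 8 of 39 (20.5%, 9.30 to 36.5) and 14 of 35 (40%, 23.9 to 57.9). Fgfr4, the receptor that responds to FGF15 in liver, averaged 2.71 (median 0, highest 28.6) and 10.1 FPKM (median 0.337, highest 55.7) in the same cultures, in 10 of 39 and 16 of 35 cells, against 0.176 to 0.647 in the ES and Epi cultures. In embryos Fgfr4 averaged 2.399 at E3.5 (median 0.0238, highest 11.8; 10 of 23 cells), 0.829 at E4.5 (6 of 23), and at E5.5 3.00 in female (11 of 20) and 1.07 in male cells (23 of 63). The E5.5 female mean and share thus lay above those of the female motor neuron culture, in a separately scaled table. Fgfr3 was detected in 0 of 23 cells at E3.5 and 3 of 23 at E4.5, and at E5.5 in 5 of 20 female (mean 1.84) and 10 of 63 male cells (mean 0.456).

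Fgfbp1, which releases FGFs from the matrix, had its own order. In 2i it averaged 18.9 ± 17.4 FPKM in female and 15.9 ± 36.1 in male cells, in serum 15.5 ± 29.9 and 6.41 ± 15.3, and in Epi cells 2.76 ± 8.39 and 2.18 ± 6.68. The passage-7 Epi line stood far above these in its own table, at 285.1 ± 337 FPKM with a median of 160.7, and 35 of 41 cells were detected. It was thus highest in the Epi line whose Fgf5 and Fgf8 resembled the male culture, and low in that male culture. Among motor neuron cells, Fgfbp1 averaged 43.98 FPKM in the female culture (median 0, highest 613) and was listed at 0 in all 35 male cells. At E3.5 it averaged 1.74 (median 0, highest 12.3) and at E4.5 9.38 FPKM.

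**Figure D1:**
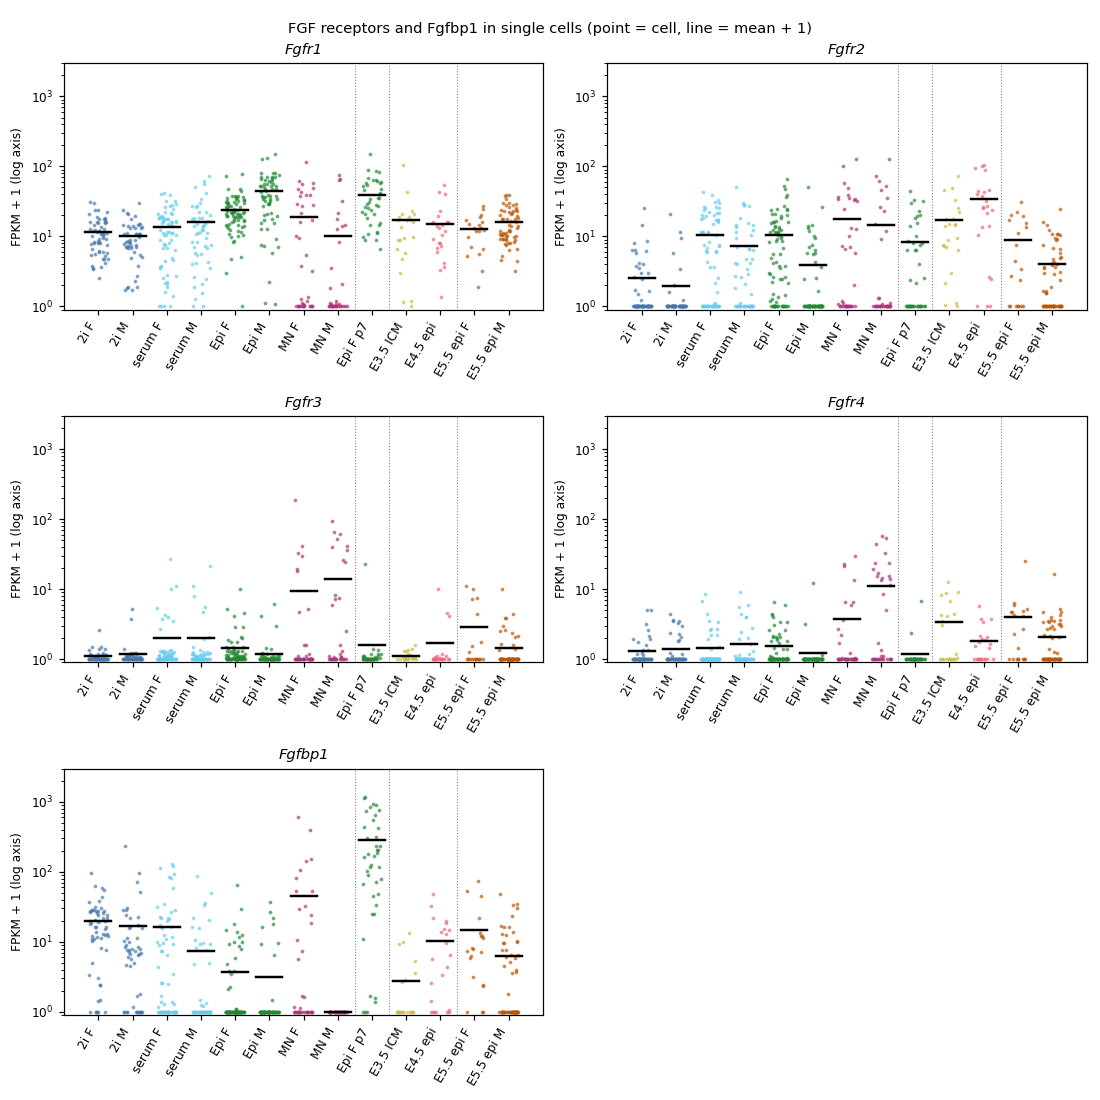
FPKM + 1 on a log axis (y) of each FGF receptor and of Fgfbp1 in every cell, by group (x), drawn with the points, lines and abbreviations of the ligand plot. Fgfr1 is present throughout, Fgfr3 and Fgfr4 reach their highest means among cultures in motor neuron cells, and Fgfbp1 is highest in the passage-7 Epi line.

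Serum against 2i was tested with limma on log2(mean FPKM + 1) per culture, with 2 cultures per state and a shared spread from all 8 cultures. Calls required a p under 0.05 after Benjamini-Hochberg adjustment over all genes and a difference of at least 1 on this log2 scale, which understates differences of low genes. None of the 9 genes was called, and of all 15504 genes tested 0.0193% were. Without adjustment, 2 of the 9 had p under 0.05, beside 9.99% of all genes. Fgf15 was 0.131 and 0.101 FPKM in 2i and 3.72 and 2.67 in serum, a difference of 1.90 (SE 0.39, limma adjusted p = 0.156) that was similar in the female and male line (2.06 and 1.74). Fgfr2 differed by 1.97 (SE 0.51, limma adjusted p = 0.242; lines 2.04 and 1.89). Fgf4 differed by 0.09 (SE 1.46), with opposite signs in the lines. The median difference of the 9 was 0.46, beside 0.00 over all genes.

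Epi against serum gave no called gene among the 9 either, beside 0.0387% of all genes, while 4 of the 9 had an unadjusted p under 0.05, beside 6.45% of all genes. Fgf8 had the largest difference, 5.43 (SE 1.37, limma adjusted p = 0.727), from 0.915 and 0.319 FPKM in serum to 12.0 and 361 in Epi cells. Fgf15 differed by 1.97 (SE 0.39, limma adjusted p = 0.530) and by similar amounts in the lines (2.09 and 1.85). Fgfr1 differed by 1.13 (SE 0.42, limma adjusted p = 0.727) and Fgf4 by -1.74 (SE 1.46), the latter 0.28 in the female and -3.76 in the male line. Without the female Epi culture, Fgf5 and Fgf8 were called higher, at differences of 5.79 and 7.83 (limma adjusted p = 0.020 and 0.0058), beside 1.43% of all genes called higher in that fit. In it, the lone male Epi culture is assumed to vary like the other states. Fgf5 and Fgf8 passed the filter on a mean of 1 FPKM there only through that male culture. The fit also leaves out the Epi culture with the lower values of both genes. Those 2 calls therefore describe the male culture and cannot decide whether Epi cells differ from serum cells as a state. The median difference of the 9 was -0.18, beside 0.12 over all genes.

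Between the Epi cultures of the first table, 1 culture of each sex, no test was possible. Of the genes averaging 1 FPKM or more, 26.4% differed over 2-fold either way, and so did 4 of the 7 members that passed this filter. Female cells were higher by 3.52 on the log2(mean FPKM + 1) scale for Fgf4 and by 1.42 for Fgfr2, and male cells were higher for Fgf5 (female minus male -3.27) and Fgf8 (-4.80). The summed mean of 8 naive pluripotency genes was 287.8 FPKM in the female and 24.97 in the male culture, and that of 6 primed epiblast genes was 201.4 and 477. Per cell the naive sum ran from 4.02 to 1197 in female and from 0 to 100.1 in male cells. In the female culture Fgf5 was lower in cells with more Zfp42 (r = -0.60, n = 79). The part of these genes in the difference between the cultures was not tested.

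Motor neuron against serum moved much of the transcriptome: 32.8% of all genes were called, 30.1% higher and 2.70% lower, and the median difference over all genes was 0.71. Of the 9 genes, Fgfr3 and Fgfr4 were called higher and Fgf15 lower. These 3 of the 9 had an unadjusted p under 0.05, beside 47.6% of all genes. Fgfr3 and Fgfr4 averaged under 1 FPKM in every ES and Epi culture. They thus passed the filter on a mean of 1 FPKM only through the motor neuron cultures in which they were called higher. With no filter on low values, 1 of the 9 genes was called. Fgfr3 rose from 0.984 and 0.994 FPKM to 8.44 and 13.1, a difference of 2.54 (SE 0.34, limma adjusted p = 0.00423) that was 2.25 in the female and 2.82 in the male line. It lay 1.83 above the median of all genes and was called in 18 of the 19 alternative analyses that tested it, with limma adjusted p-values from 0.00264 to 0.0425. The exception was the mean over cells of log2 values, where its difference was 0.96. Fgfr4 rose from 0.452 and 0.647 FPKM to 2.71 and 10.1, a difference of 2.05 (SE 0.55, limma adjusted p = 0.0296; lines 1.35 and 2.76), which lay 1.35 above that median. Fgf15 fell from 3.72 and 2.67 FPKM to 1.13 and 0.339, a difference of -1.30 (SE 0.39, limma adjusted p = 0.0413), or -2.01 relative to the median. Fgfr4 was called in 8 of 18 alternatives (limma adjusted p from 0.00316 to 0.147) and Fgf15 in 9 of 19 (0.0235 to 0.350). Both were lost without either serum culture (limma adjusted p = 0.134 and 0.194 without the female, 0.110 and 0.112 without the male one) and without either 2i culture, and Fgf15 without the male motor neuron culture (0.124), where Fgfr4 was not tested. Upper-quartile scaling, under which 56.3% of called genes were higher in place of 91.8%, kept the directions with limma adjusted p = 0.0615 for Fgfr4 and 0.0235 for Fgf15.

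The other members did not pass in this comparison. Fgf4 differed by -3.45 (SE 1.46, limma adjusted p = 0.109), -1.33 in the female and -5.57 in the male line. Fgfr2 differed by 0.88 (SE 0.51) and Fgfr1 by -0.09 (SE 0.42), with opposite signs of Fgfr1 in the lines. Fgfbp1 differed by 1.44 in the female and -2.89 in the male line. Without the female motor neuron culture, 5 members were called, Fgf4 and Fgfbp1 lower in addition, beside 35.8% of all genes called and 3.69% called lower. In that fit the lone male motor neuron culture is assumed to vary like the other states.

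**Figure D2:**
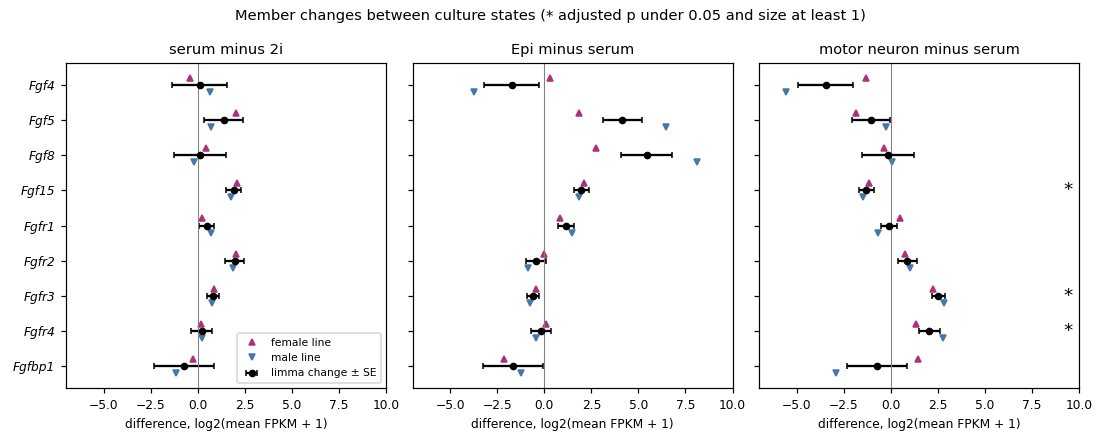
Difference in log2(mean FPKM + 1) (x) of each member (y) in the 3 comparisons of culture states; black points are limma differences with SE bars, upward triangles the female line, downward triangles the male line, and an asterisk marks a call. Calls appear in the motor neuron comparison alone, and the lines lie farthest apart for Fgf4, Fgf5 and Fgf8 in Epi cells and for Fgf4 and Fgfbp1 in motor neuron cells.

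Setting the summed mean of the 4 ligands against that of the 4 receptors described each state. FPKM is a level per length, so sums over genes can be set side by side within a table. ES cells had more ligand than receptor RNA in every culture, with log2 ratios of 1.76 and 1.45 in 2i and 0.74 and 1.09 in serum. Receptor sums were 12.4 and 10.6 FPKM in 2i and 23.5 and 23.03 in serum, beside ligand sums of 44.5, 30.7, 39.96 and 50.3. The lower ratio in serum thus went with a higher receptor sum. In the female line, Fgfr2 rose more from 2i to serum (1.57 to 9.58 FPKM) than Fgfr1 (10.49 to 12.51). In the male line, Fgfr1 rose more (9.08 to 15.2 FPKM, beside 0.942 to 6.19 for Fgfr2).

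In Epi cells the ratio was 1.32 in the female and 3.46 in the male culture (SD 1.51 over the 2 cultures), and 3.25 in the passage-7 line. The ligand was a different one: Fgf4 made up 46.5% of the ligand sum in female Epi cells, 0.484% in male and 1.23% in passage-7 cells, where Fgf8 made up 69.4% and 69.2%. In the motor neuron cultures the 4 ligands summed to less than the receptors, with ratios of -1.65 and -4.45, and ligand sums were 13.9 and 1.14 FPKM beside receptor sums of 45.8 and 45.9. This order holds for these 4 ligands only: 18 other FGF genes summed to 128.4 FPKM in the female and 1046 in the male culture, of which Fgf13, whose protein stays inside the cell, was 98.98 and 993.3. The female value moved to -3.79 in the higher run of title numbers and -1.02 in the lower, and the Fgf4 sum there rested on few cells. Blastocyst cells also had less RNA of the 4 ligands than of the receptors, at -1.74 at E3.5 and -1.98 at E4.5. There the 18 other FGF genes summed to 8.51 and 7.68 FPKM. At E5.5 the ratio was 3.39 in female and 3.61 in male cells, with Fgf8 at 65.8% and 49.8% of the ligand sum.

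The receptor make-up changed as well. Fgfr1 was 84.3% and 85.5% of the receptor sum in 2i, 53.2% and 66% in serum, 92.8% in male Epi cells and 28.6% at E4.5, where Fgfr2 was 68.3%. Male motor neuron cells spread the sum most evenly, with Fgfr1 at 20%, Fgfr2 at 29.3%, Fgfr3 at 28.6% and Fgfr4 at 22.1%. A ligand and a receptor were held at once by 59 of 68 female serum cells, the lowest share among ES and Epi cultures, and by all 41 passage-7 and all 83 E5.5 cells. At E3.5 and E4.5 this was so in 12 and 18 of 23 cells. Only 10 of 39 female and 5 of 35 male motor neuron cells did so, and 29 and 30 of them held none of the 4 ligands.

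**Figure D3:**
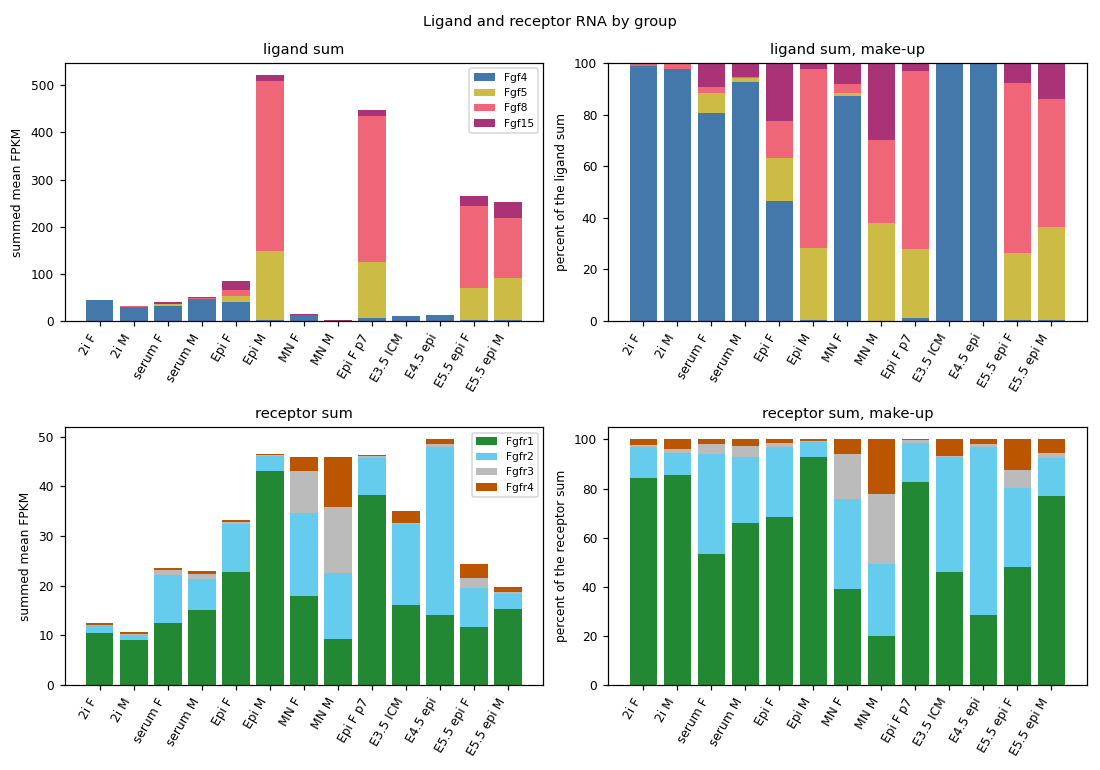
Summed mean FPKM (left) and percent of the sum (right) of the 4 ligands (top) and the 4 receptors (bottom) by group (x), each gene in its own colour. Fgf4 fills the ligand sum in ES and blastocyst groups and Fgf8 most of it in male and passage-7 Epi cells, while the receptor sum stays between 10.6 and 49.4 FPKM.

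In single blastocyst cells, Fgf4 and Fgfr2 ran against each other. Their r was -0.60 over 23 cells at E3.5 and -0.59 over 23 cells at E4.5, although 10 and 16 cells held both at 1 FPKM or more. Cells of a stage share a table and differ in depth. At E3.5, 6 cells had more Fgf4 than Fgfr2, a split that itself fixes the levels of these genes. Fgfr4, which did not enter the split, was under 1 FPKM in all 6 and at 1 or more in 10 of the 17 others. Endoderm genes did not divide alike. Gata6 had a median of 7.72 FPKM in the 6 cells and 23.9 in the 17, and Gata4 was detected in 2 and 8. Sox17 was detected in 4 and 7, and Pdgfra in 6 and 10. At E4.5, 7 cells had more Fgf4, and Nanog, the epiblast gene, had a median of 160 FPKM in them and 17.5 in the 16 others. Fgfr4 was detected in 1 of these 7 cells and in 5 of the 16. Nanog followed Fgf4 (r = 0.55 at E3.5 and 0.68 at E4.5) and opposed Fgfr2 (r = -0.50 and -0.85).

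At E4.5 the levels also differed by Gata6. In the 4 cells without it, Fgf4 was 25.3, 33.2, 42.1 and 79.3 FPKM, all above the highest Fgf4 value, 14.7, of the 19 cells with it. Fgfr2 was 1.45, 0, 0 and 20.8 FPKM in the same 4 cells, so that the cell with the most Fgf4 also held Fgfr2, and had a median of 31.1 in the cells with Gata6. These 4 cells came from 2 of the 7 leading numbers in the cell titles, which the labels do not explain, and whether they share an embryo is not given. At E3.5 only 1 cell had Gata6 under 1 FPKM, and it went the other way, with Fgf4 at 0 and Fgfr2 at 72.2 FPKM. Fgfr2 was positively related to Fgfr4 (r = 0.51 and 0.42) and, at E4.5, to Fgfbp1 (r = 0.57). The same pair was related at E5.5, at r = 0.53 over 20 female and 0.52 over 63 male cells.

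**Figure D4:**
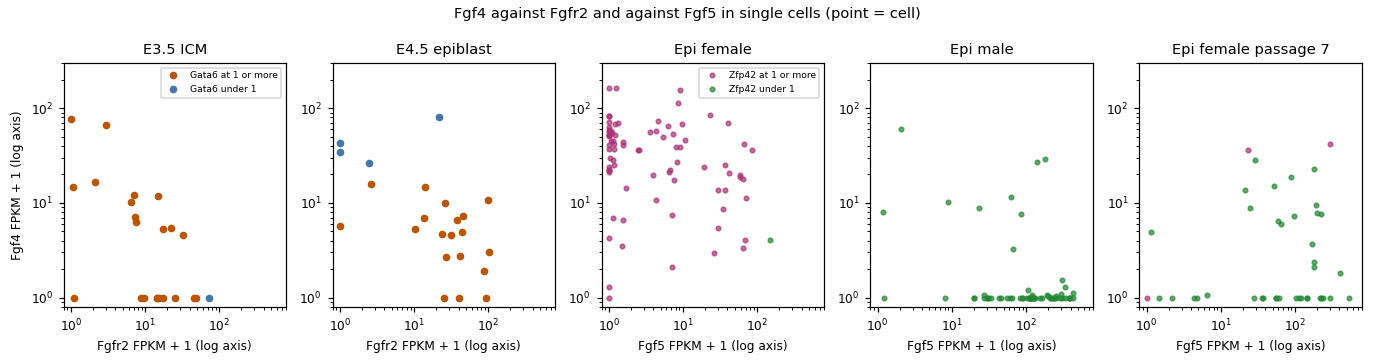
Each point is a cell, with Fgf4 FPKM + 1 (y) against Fgfr2 (E3.5 and E4.5) or Fgf5 (3 Epi cultures) FPKM + 1 (x), both on log axes and coloured by Gata6 or Zfp42 at 1 FPKM or more. At E4.5 the 4 cells under 1 FPKM of Gata6 lie at the top, and female Epi cells hold Fgf4 with or without Fgf5.

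From E3.5 to E4.5, taken as 1 sample each and so without a test, 5 members passed a mean of 1 FPKM and 2 of them differed over 2-fold, beside 25.1% of all genes. Fgfr2 was higher by 1.00 and Fgfbp1 by 1.92 on the log2(mean FPKM + 1) scale. Fgf4 differed by 0.25, Fgfr1 by -0.17 and Fgfr4 by -0.89. Averaged over the leading title numbers in place of cells, 1 member was past 2-fold. Per cell, the sum of 8 endoderm genes had a median of 111.8 FPKM (15.0 to 411) at E3.5 and 104.7 (0.526 to 506.6) at E4.5, with 1 of the 8 at 0 in each. The sum of 6 trophectoderm genes, Krt8 and Krt18 among them, had medians of 182.9 (10.2 to 1898) and 1243 (6.36 to 3196), and Cdx2, which defines that lineage, was detected in 13 and 20 of 23 cells. Their part in the Fgfr2 and Fgfbp1 values was not tested. Between female and male cells at E5.5, 2 of 8 members that passed differed over 2-fold, beside 10.7% of all genes. Both were higher in female cells, Fgfr2 by 1.13 and Fgfbp1 by 1.24. A list of 7 decidual and stromal genes summed to a mean of 53.3 FPKM (3.37 to 298.7 per cell) in female and 6.68 (0 to 49.2) in male cells, and Sox17 was detected in 20 of 20 and 41 of 63. Their part in these differences was not tested.

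Among cells labelled motor neuron, receptors differed in their relation to marker genes, and 22 of 39 female and 16 of 35 male cells held 2 or more receptors. Fgfr4 was detected in 9 of 19 female cells with Sox17 and 1 of 20 without, and in 16 of 32 male cells with Sox17 and 0 of 3 without (r = 0.63 and 0.67). In male cells it opposed Dcx, a gene of young neurons (r = -0.74, n = 35). Fgfr1 showed the opposite relation to Sox17 in female cells, with 15 of 20 cells detected without Sox17 and 6 of 19 with it. Fgfr3 and Fgfr4 were together in 10 of 35 male cells. Of the 6 female cells with Fgf4, 5 held Pou5f1, the core pluripotency gene, as did 12 of the 15 with Fgfbp1. In male motor neuron cells, where both genes were listed at 0, Pou5f1 was detected in 2 of 35 cells, beside 17 of 39 in the female culture. Over the whole lists, motor neuron against serum called 7 of 7 endoderm and 8 of 8 neuron genes tested higher, beside 30.1% of all genes. Some of them, such as Isl1, passed the filter on a mean of 1 FPKM only through the motor neuron cultures. The endoderm sum ran from 0 to 1268 FPKM per cell in female and from 4.81 to 4203 in male motor neuron cells, against at most 27.6 in serum cells. The neuron sum ran from 3.48 to 10774 and from 5.71 to 15758, and the part of either cell type in the calls of Fgfr3 and Fgfr4 was not tested.

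Other genes of the pathway were read from lists of 18 further FGF ligands, 22 co-receptor and heparan sulfate genes, 19 genes of the relay from receptor to ERK, and 14 feedback genes and targets. Serum against 2i and Epi against serum called none of them. In the first of these, 8 of 14 feedback genes and targets had an unadjusted p under 0.05 (9.99% of all genes) and their median difference was 1.48, beside 0.00 over all genes; limma adjusted p-values of all 14 were above 0.05. Motor neuron against serum called 4 further ligands higher and 1 lower of 7 tested, beside 30.1% and 2.70% of all genes. Fgf13, an intracellular family member of neurons, rose by 5.77 (limma adjusted p = 0.00961) and Fgf18 by 3.51 (0.00381). Fgf18 averaged 0.358 and 0.0966 FPKM in serum, beside 10.2 and 16.1 in the motor neuron cultures. It passed the filter on a mean of 1 FPKM only through the motor neuron cultures in which it was called higher. Fgf17 was listed at 0 in every motor neuron cell and averaged 15.9 and 11.6 FPKM in serum cells.

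The same comparison called 10 of 21 tested co-receptor and heparan sulfate genes higher and none lower, beside 30.1% and 2.70% of all genes, with a median of 1.65 beside 0.71 over all genes. They included the glypican Gpc1 (2.73), the sulfotransferase Hs6st2 (2.67) and Klb, the co-receptor for FGF15 (2.67, limma adjusted p = 0.0220). Of the relay genes, 7 of 19 were called higher, near the share of all genes (30.1%), with a median of 0.93 and the highest values for Mapk3 (ERK1), Grb2 and Araf at 2.57, 2.31 and 2.00. Among 14 feedback genes and targets, Fos (3.16) and Dusp4 (1.55) were called higher and Etv5, a target of FGF signalling, lower (-1.81), with a median of 0.17.

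Genes most like each member were ranked by the r of log2(FPKM + 1) over the 447 cells of the first table, among the 9691 genes averaging 5 FPKM or more. The cells share 8 cultures, so a high r can reflect the cultures alone. Fgf4 was closest to Gdf3 (0.85), Gtsf1l (0.83) and Ooep (0.83). Fgf5 was closest to Fgf8 (0.83), Lhx1 (0.81) and Lhx1os (0.81), and Fgf8 to Lhx1 (0.89), Lhx1os (0.89) and Mixl1 (0.87). Fgfr4 was closest to Pla2g12b (0.67), Ttr (0.63) and Fxyd3 (0.61). For Fgf15 the highest value was 0.45 (Vrtn), for Fgfr1 0.53 (Hmga1b), for Fgfr2 0.33 (Slc23a1), for Fgfr3 0.44 (Spon2) and for Fgfbp1 0.42 (Gsta3), so no gene came close to these.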

How the data were processed

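The deposited values are FPKM per gene and cell, which the authors made, per the labels, from SMART-seq2 libraries cut with Tn5. The submitters' processing notes name STAR 2.4.1, Cufflinks, Cuffnorm 2.2.1 and mm10; the annotation, the strand setting and cell filters are not given in the sources used here. In 356 blastocyst values the exponent's minus sign was a low line and was read as a minus. Of 43628 Ensembl IDs, 42462 matched GENCODE vM21.

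Cells were grouped by label. No 2 columns were identical (highest r 0.938). Culture means of the first table entered limma 3.58.1 in R 4.3.3 on log2(mean FPKM + 1), with trend, for the 15504 genes averaging 1 FPKM or more, with a term per state, which leaves 4 residual degrees of freedom. P-values measure the spread between 2 lines only. The script was tested on simulated data. The female and male cultures of different states come from the same 2 lines (labels), and their deviations correlated at r 0.0605 to 0.163 across genes. Shares used exact Clopper-Pearson intervals, and upper limits for counts of 0 were 3 over the number of cells. Python 3.11.15, numpy 2.4.6, pandas 2.3.3, scipy 1.17.1 and matplotlib 3.10.9 did the rest. Runs of title numbers were split at gaps over 8.

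The members, lists, named-gene rule (the 3 called genes of a list with the largest change; the 3 genes most like a member) and tests were chosen with earlier results of these data known. Core pluripotency, naive, primed, neuron, neural progenitor, endoderm, trophectoderm and decidual markers were also listed. Alternatives were other pseudocounts, filters, scalings, runs, the line as a block, fewer cultures and leaving out each culture.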

Additional observations from a re-analysis of the deposited data

Results flagged for a closer look

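In 7 of the 27 member changes (9 members, 3 comparisons) the female and the male line differed in sign. Each line has 1 culture per state, so the difference between the lines was not tested. Values are the female minus the male change in log2(mean FPKM + 1). For serum against 2i they were -1.06 for Fgf4 and 0.66 for Fgf8. For Epi against serum, Fgf4 gave 4.04, with a change of 0.28 in the female and -3.76 in the male line, and Fgfr4 gave 0.52. For motor neuron against serum, Fgf8 gave -0.40, Fgfr1 1.16 and Fgfbp1 4.33, the last with 1.44 in the female and -2.89 in the male line.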

How the results depend on the processing

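Of 555 alternative member changes, 509 kept direction and side of the threshold, 19 reversed, 21 lost a call and 6 gained one. All 351 alternative means stayed within 1 SD over cells. The medians among them could not lie farther than that from a mean, and the SD often exceeded the mean. This was therefore a weak check. Pairing the cultures by line (the line as a block) called 0 members in serum against 2i, 0 in Epi and 3 in motor neuron cultures against serum, as without the block, and 0, 2 and 5400 genes in place of 3, 6 and 5088.

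Members called in motor neuron against serum numbered 1 with no low-value filter, 0 with a filter at 5 FPKM (Fgfr3, Fgfr4 and Fgf15 then went untested), 1 with mean log2 values and 1 in a fit of only the 4 cultures; leaving out 1 culture gave 1 to 5, and 0 to 2 in Epi against serum. Past 2-fold between E3.5 and E4.5 was 1 member by leading title numbers, in place of 2. The ligand to receptor log2 ratio was 1.72 in male 2i cells of the lower run and -3.79 in female motor neuron cells of the higher run.

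Some member changes reversed. With mean log2 values, Fgf4 and Fgf8 in serum against 2i were -0.46 and -0.045, and Fgf8 and Fgfr2 in motor neuron against serum 0.00059 and -0.078. In the lower run, serum against 2i was -0.13 for Fgf8, -0.12 for Fgfr4 and 0.58 for Fgfbp1, Fgfr4 in Epi against serum 0.12 and Fgf8 in motor neuron against serum 0.068; in the higher run Fgfr1 there was 0.46. Leaving out 1 culture, serum against 2i ranged from -0.18 to 0.36 for Fgf4 and from -0.17 to 0.37 for Fgf8; Epi against serum from -3.50 to 0.023 for Fgf4 and from -1.15 to 0.27 for Fgfr2; motor neuron against serum from -0.42 to 0.12 for Fgf8, -0.54 to 0.35 for Fgfr1 and -3.47 to 2.02 for Fgfbp1. For the changed counts, ratios and reversals the cause was not tested, apart from the genes the 5 FPKM filter removed.

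Genes called among all tested moved over 1.5 times in these cases. For serum against 2i (3) the counts were 0 with a pseudocount of 0.1, 27 with no filter, 224 with mean log2 values, 12 with upper-quartile scaling, 11 in the higher run, 21 without trend, 0 with 4 cultures and 0 to 51 leaving out 1 culture. For Epi against serum (6) they were 1 in the lower run, 9 with no filter, 4 with a filter at 5 FPKM, mean log2 values or the higher run, 0 with 4 cultures and 0 to 366 leaving out 1 culture. For motor neuron against serum (5088) they were 3137 with rescaled cells, 2876 with 4 cultures and 1669 to 5486 leaving out 1 culture. Rescaling each cell to the same sum moved the share of higher calls to 69.05% and mean log2 values to 75.04%. With 2 cultures per state, and about 1 fragment per kilobase behind a value near 1 FPKM at E5.5, absence of a low gene cannot be told apart from shallow depth.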
